A study of Mus musculus with 2 samples.

Results

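The genes described here encode the ligands and receptors of the epidermal growth factor (EGF) receptor family. They are the 10 genes Areg, Ereg, Hbegf, Tgfa, Btc, Epgn, Egf, Nrg1, Egfr and Erbb3, out of 24813 named genes with a probe, and they were taken by gene name from the array annotation, with all 23 of their non-control probes. S100A4-positive cells and S100A4-negative cells were sorted from Peyer's patches, which are lymphoid organs in the wall of the small intestine. Both fractions came from C57BL/6 mice that carry the S100A4-GFP transgene, a green fluorescent reporter for the calcium-binding protein S100A4, and both went through enzyme digestion before the sort. One-colour arrays measured the total RNA of 1 sample per fraction, on 1 array each, with the dye Cy3. The age and number of the mice and the amount of RNA labelled are not given in the sources used here. A sorted fraction is a mixture of cells, so that more cells of a type and more RNA per cell cannot be told apart.

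EGF family ligands are made as membrane-bound precursors, and proteases of the ADAM family cut them to release a soluble factor built around an EGF-like domain held together by cysteine pairs. Most of them bind the EGF receptor, whereas neuregulin 1 binds ERBB3 and ERBB4, and the receptors act in pairs, often with ERBB2, which has no ligand of its own. In the intestine, EGF receptor signalling is known for driving growth and repair of the epithelium, and amphiregulin (Areg) and heparin-binding EGF-like growth factor (Hbegf) are known as ligands that immune cells can supply.

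The probe sequences below belong to Areg, Nrg1 and Erbb3. They are 60 bases long, run 5′ to 3′ and come from the array files, whose positions are on the mouse mm9 build. The first is the Areg probe (chromosome 5, 91570090 to 91570149, plus strand). The next 3 are Nrg1 probes on the minus strand of chromosome 8, at 33068986 to 33069045, at 32959791 to 32959850 and at 32928500 to 32928559, in the order of the transcript. The last is an Erbb3 probe (chromosome 10, 128006424 to 128006483, minus strand). In the second Nrg1 probe the capitals mark 2 cysteine codons with 5 codons between them, a spacing found in EGF-like domains. In the third Nrg1 probe and in the Erbb3 probe they mark an in-frame stop codon at the 3′ end, so these probes read the end of the coding sequence. The Areg probe and the first Nrg1 probe each had 1 open reading frame, without a cysteine or stop codon, and carry no capitals. The exons the probes lie in were not analysed here. The most upstream Nrg1 probe, which stood for the gene, and the Erbb3 probe that detected the gene are not printed.
Areg A_52_P482897: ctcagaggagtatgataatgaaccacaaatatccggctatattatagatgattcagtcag
Nrg1 A_55_P2874801: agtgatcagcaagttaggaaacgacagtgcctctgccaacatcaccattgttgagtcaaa
Nrg1 A_52_P369769: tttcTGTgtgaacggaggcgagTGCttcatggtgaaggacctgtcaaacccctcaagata
Nrg1 A_55_P1985433: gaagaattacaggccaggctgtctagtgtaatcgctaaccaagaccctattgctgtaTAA
Erbb3 A_55_P2119897: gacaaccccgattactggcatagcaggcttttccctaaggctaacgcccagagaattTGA

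On the array of the positive fraction 52.3% of the 59305 spots that are no controls passed the scanner software's call of well above background, against 53.3% on the array of the negative fraction, and none was saturated on either. S100a4, the gene behind the reporter, read 119341 in the positive and 1057 in the negative fraction. Differences are log2, S100A4-positive minus S100A4-negative, after each array was divided by its own 75th percentile (a signal of 287.3 on the positive and 445.9 on the negative array), and levels are given as a percentage of that percentile. With 1 array per fraction no test between the fractions was possible, and a gene is called here when it differed at least 2-fold. The ± values are the scanner software's error for the spots and hold nothing of the variation from one mouse, sort or labelling to another. On the scale of the spike-in controls every measured difference is shifted by -2.44, so that directions are relative to the 75th percentile, and a difference smaller than this shift does not stay higher there. A gene that was not well above background on 1 array has only a bound there and is given as "at least".

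At the probe that stands for each gene, the family divided into 2 ligand genes higher in the positive fraction and a receptor gene in each direction. Several other genes were within 2-fold or too dim to measure. Hbegf, Areg and Egfr passed 2-fold on the higher side in the positive fraction, and Erbb3 on the lower side. Egf, Tgfa (at its bound) and Nrg1 lay within 2-fold at that probe. Further Nrg1 probes, described below, were at least 10.5-fold and 14.2-fold higher in the positive fraction. Ereg, Btc and Epgn were not well above background on either array. Of the 23 probes 7 were well above background on both arrays, 4 on the positive array alone, 2 on the negative array alone and 10 on neither. Among the 15245 named genes with a detected probe 21.4% passed 2-fold on the higher side and 17.0% on the lower side, and 3 higher and 1 lower of 7 measured genes are too few to set apart from these shares. Egfr entered this count through the positive array alone, and Tgfa through the negative array alone. The median difference of the 7 genes was 0.56 and that of all genes tested was 0.01.

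**Figure D1:**
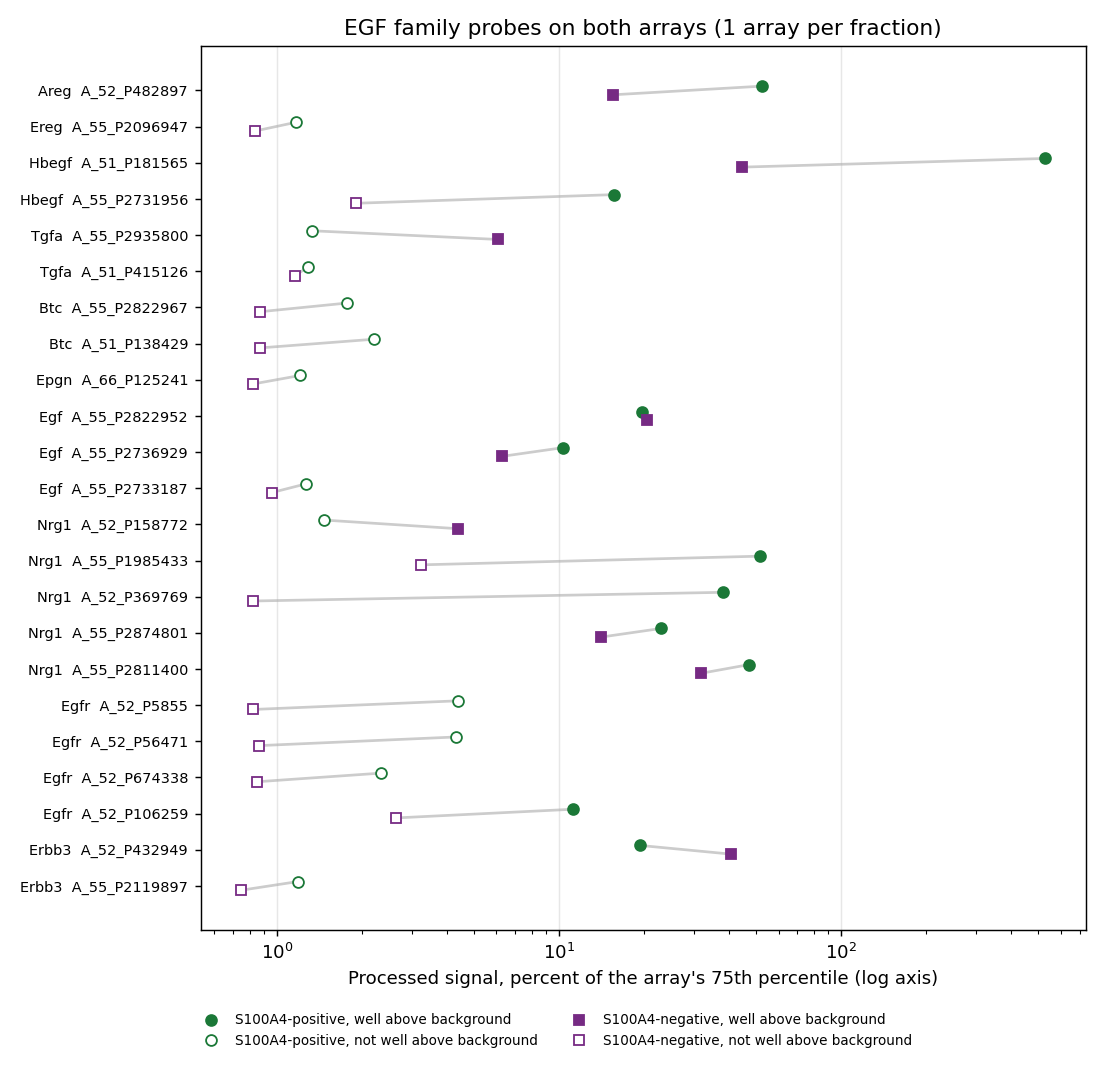
Processed signal of each of the 23 EGF family probes as a percentage of its array's 75th percentile (log axis), with S100A4-positive cells as circles and S100A4-negative cells as squares; filled symbols were well above background. The brightest Hbegf probe stands at 529% in the positive fraction, and the 10 probes with both symbols open cannot be ordered.

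Hbegf, the heparin-binding ligand of EGFR and ERBB4, showed the largest difference among the ligand genes measured on both arrays. Its main probe read 1519 ± 152 in the positive fraction and 199 ± 20.2 in the negative fraction. On the scaled arrays this was 529% against 44.5%, a log2 difference of 3.57 ± 0.21 or 11.9-fold. That is far outside the scanner error, and 567 of the 15245 genes tested had a larger difference. A second Hbegf probe, 7.7 kb upstream in the direction of transcription, was dimmer but pointed the same way. It read 45.1 in the positive fraction, well above background, and 8.48 in the negative fraction, not well above background, which makes the positive fraction at least 4.33-fold higher. Hbegf remained at least 2-fold higher under all 11 other settings tried, with the lowest difference, 1.13, on the scale of the spike-in controls. Macrophage and monocyte markers, whose cells can make Hbegf, were higher in the same fraction. All 10 listed were at least 2-fold higher, 2 of them seen on the positive array alone. Their summed level was 57206% in the positive and 893% in the negative fraction. Classical dendritic cell markers were higher in that fraction too. All 8 measured were at least 2-fold higher, and their summed level was 11160% in the positive and 755% in the negative fraction. Of these 8, 4 were seen on the positive array alone and could not have counted as lower. The part of any of these cells in the Hbegf difference was not tested.

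Areg encodes amphiregulin, a ligand of EGFR that regulatory T cells, group 2 innate lymphoid cells and mast cells can release. Its single probe read 151 ± 15.4 in the positive fraction and 69.1 ± 7.63 in the negative fraction. The scaled levels were 52.4% and 15.5%, a difference of 1.76 ± 0.22 or 3.38-fold, but on the spike-in scale it was -0.68, the other direction. On the raw images the Areg spot was 3.89 times its local background in the positive and 2.50 times in the negative fraction, so it was a dim spot on both arrays. Of the markers fixed for regulatory T and group 2 innate lymphoid cells, other than Areg, 3 of 7 measured passed 2-fold on the higher side and none on the lower side. The interleukin 2 receptor gene Il2ra was at 4.06, Klrg1 at 3.23 and the interleukin 33 receptor gene Il1rl1 at 1.47. The lineage factor gene Foxp3 was at -0.96, Gata3 at 0.97, Ctla4 at -0.04 and Ikzf2 at 0.30, all within 2-fold. The cytokine genes Il5 and Il13 were not well above background on either array. The summed level of this list was 1656% in the positive and 514% in the negative fraction. Il2ra alone made 861% and 51.6% of these sums. General T cell markers ran the other way. Of 8 measured 6 were lower, such as the CD3 chain gene Cd3e (-3.92), none was higher, and their summed level was 2297% in the positive and 15172% in the negative fraction. Of the mast cell and basophil markers Kit (3.93) and Cpa3 (1.17) were higher, whereas the protease genes Mcpt1 and Mcpt2 were lower and the receptor genes Fcer1a and Ms4a2 and the factor gene Gata2 were not well above background. The summed level of that list was 1352% in the positive and 199% in the negative fraction, but Kit alone made 1334% and 87.3% of it, and the other 3 measured markers summed to 18.1% in the positive and 112% in the negative fraction. The part of these cells in the Areg difference was not tested.

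Areg lies in a row of EGF family genes on chromosome 5, in the order Epgn, Ereg, Areg and Btc in the RefSeq table of the GRCm38 assembly, with Ereg next to Areg. Of these neighbours only Areg gave a measurable signal. Ereg, which encodes epiregulin, a ligand of EGFR and ERBB4, read 3.36 in the positive and 3.74 in the negative fraction. Epgn, the gene of epigen, read 3.48 and 3.66. These values lie below the lowest signal that was well above background, 15.7 on the positive and 16.1 on the negative array, and have no order. Btc encodes betacellulin, another ligand of EGFR and ERBB4. Its 2 probes read 5.08 and 6.34 in the positive fraction and 3.88 and 3.89 in the negative fraction, also below that limit. For these genes a difference was not detectable at this signal.

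Egf, the gene of the founding ligand, was measured at a low level in both fractions. The probe to its curated transcript (chromosome 3, 129380577 to 129380636 on mm9, minus strand) read 56.7 ± 6.63 in the positive and 91.4 ± 10.3 in the negative fraction, which are scaled levels of 19.7% and 20.5%. The difference of -0.05 ± 0.23 was smaller than the scanner error. A second probe, to another annotated transcript, read 29.6 ± 5.0 in the positive and 28.0 ± 4.63 in the negative fraction, a difference of 0.72 ± 0.34, within 2-fold. The third Egf probe, at 3.64 and 4.28, was not well above background on either array. Tgfa encodes transforming growth factor alpha, an EGFR ligand made by many epithelia. Its main mRNA probe was not well above background on either array, at 3.70 in the positive and 5.18 in the negative fraction. A probe to another annotated transcript read 3.83 in the positive fraction, not well above background, and 27.0 ± 4.52 in the negative fraction. Because the lowest detectable signal on the positive array lies close to that level after scaling, the bound for Tgfa was only -0.15, and the difference cannot be sized further.

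Nrg1, the gene of neuregulin 1, gave a different answer at different probes along the gene. The 5 probes span 1069 kb on the minus strand of chromosome 8. At the most upstream probe the signals were close, at 135 ± 14.0 in the positive and 142 ± 14.7 in the negative fraction, a difference of 0.56 ± 0.21. At the next probe, 143 kb upstream of the last, the signals were 65.9 ± 7.36 in the positive and 62.6 ± 7.06 in the negative fraction, and the difference was 0.71 ± 0.23. Both lay within 2-fold. Downstream of these the fractions separated. The probe with the paired cysteine codons read 109 ± 11.4 in the positive fraction and 3.67 in the negative fraction. It was not well above background in the negative fraction, so the positive fraction was at least 10.5-fold higher. The probe that ends on the stop codon read 148 ± 15.2 in the positive and 14.5 in the negative fraction, again not well above background there, and was at least 14.2-fold higher in the positive fraction. The last probe, 2.69 kb further on, was assigned to a predicted transcript. It read 4.20 in the positive fraction, not well above background, and 19.5 ± 3.78 in the negative fraction, which was just above the limit of that array, and no fold could be given.

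**Figure D2:**
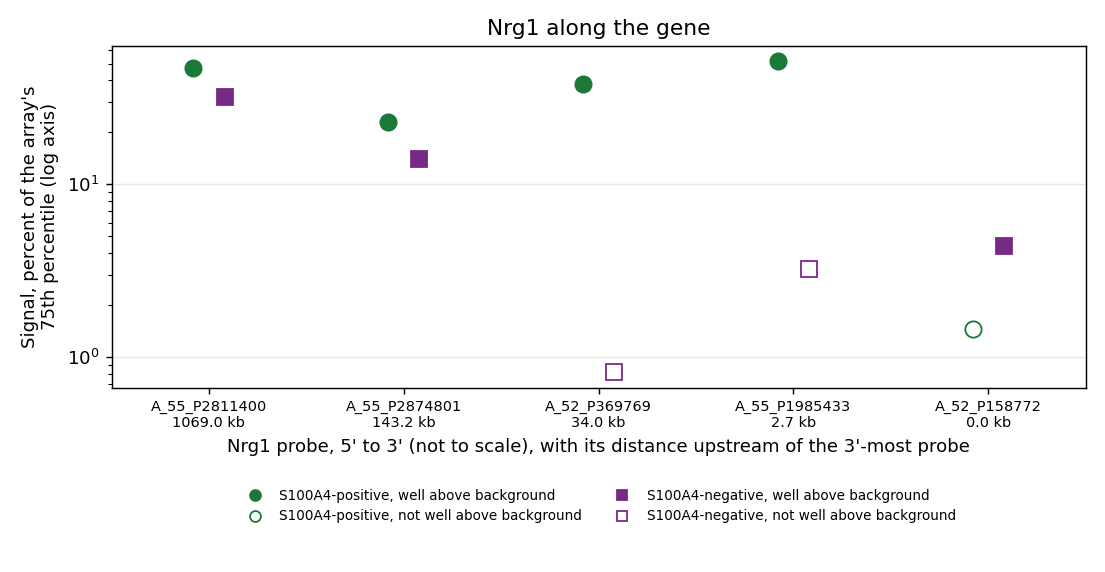
The 5 Nrg1 probes in the order of the transcript (not to scale), with the signal as a percentage of the array's 75th percentile (log axis) in S100A4-positive (circles) and S100A4-negative cells (squares); open symbols were not well above background. The fractions lie close together at both upstream probes and apart at the probes 34.0 and 2.7 kb upstream of the last one.

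Since the most upstream probe was the brightest over both arrays, it stood for the gene and placed Nrg1 within 2-fold. With probes to curated RefSeq mRNAs alone, a choice made after the values were seen, Nrg1 was at least 14.2-fold higher in the positive fraction (a bound of 3.83). Among all genes with 2 or more probes well above background on both arrays, 30.3% of 5651 had probes that differed from each other by over 2-fold. Nrg1 is not among these, since its 2 probes of that kind lay 0.15 apart, and its disagreement came from probes seen on 1 array. Schwann cells and enteric glia are known targets of neuregulin. Of their markers, Sox10, S100b and Gfap were not well above background on either array, and Ngfr was at -0.62, within 2-fold.

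Egfr, the receptor for most of these ligands, was near the limit of detection. Of its 4 probes 1 was well above background, on the positive array alone. That probe (chromosome 11, 16813815 to 16813874 on mm9, plus strand) read 32.1 ± 4.61 in the positive and 11.8 in the negative fraction, which makes the positive fraction at least 3.08-fold higher (a bound of 1.62). With normexp background correction the bound was 0.88 and with no scaling 0.99, both under 2-fold, and on the spike-in scale no fold remained. The other 3 probes read 12.6, 12.4 and 6.73 in the positive fraction and 3.67, 3.85 and 3.78 in the negative fraction. None of these was well above background. Fibroblasts and endothelium are known to carry EGFR. Of 7 measured fibroblast markers 4 were at least 2-fold higher in the positive fraction, among them Lum (at least 25.1-fold), and 1, Col1a1, was lower. Lum and Pdpn were seen on the positive array alone, and Col1a1 on the negative array alone. The collagen genes Col1a2 (-0.78) and Col3a1 (-0.51) lay within 2-fold. Of 6 endothelial markers 5 were higher, but 4 of these were seen on the positive array alone and could not have counted as lower. Of the 2 measured on both arrays Eng was at 4.73 and Pecam1 at -0.25. The summed fibroblast level was 7666% in the positive and 1911% in the negative fraction, of which Thy1, also a T cell gene in mice, made 7439% and 1812%. The other 6 fibroblast markers summed to 227% in the positive and 99.4% in the negative fraction. The endothelial sum was 374% in the positive and 63.1% in the negative fraction. The fibroblast marker Pdgfra and the endothelial marker Tek were not well above background on either array. Markers of the epithelium, where EGF receptor signalling is also known, ran the other way. Of 10 measured 8 were at least 2-fold lower, 2 of them seen on the negative array alone, and 1 was higher. The epithelial sum was 355% in the positive and 3354% in the negative fraction. The part of these cells in the Egfr signal was not tested.

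Erbb3 encodes a neuregulin receptor with little kinase activity of its own. It was lower in the positive fraction at the 1 probe that detected it, but only just past 2-fold. This probe (chromosome 10, 128004749 to 128004808 on mm9, minus strand) read 55.6 ± 6.54 in the positive and 181 ± 18.4 in the negative fraction, or 19.4% against 40.6% after scaling, a difference of -1.07 ± 0.22. With normexp background correction it was -0.58, within 2-fold. The Erbb3 probe printed above, which ends on the stop codon, was not well above background on either array, at 3.41 in the positive and 3.33 in the negative fraction. The detected probe lies 1.68 kb further downstream, so the Erbb3 call rests on a probe downstream of the stop codon, while the probe at the end of the coding sequence did not detect the gene. Epithelial markers were lower in the positive fraction beside it. Of 10 listed 8 were at least 2-fold lower, such as Krt8 (-3.31) and Tff3 (-6.86), 1 was higher, the cadherin gene Cdh1 (1.52), and Epcam was at -0.91. The summed epithelial level was 355% in the positive and 3354% in the negative fraction. B cell markers were lower too. All 8 listed were at least 2-fold lower, 1 of them seen on the negative array alone. Their summed level was 2063% in the positive and 45988% in the negative fraction. The part of these cells in the Erbb3 difference was not tested.

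**Figure D3:**
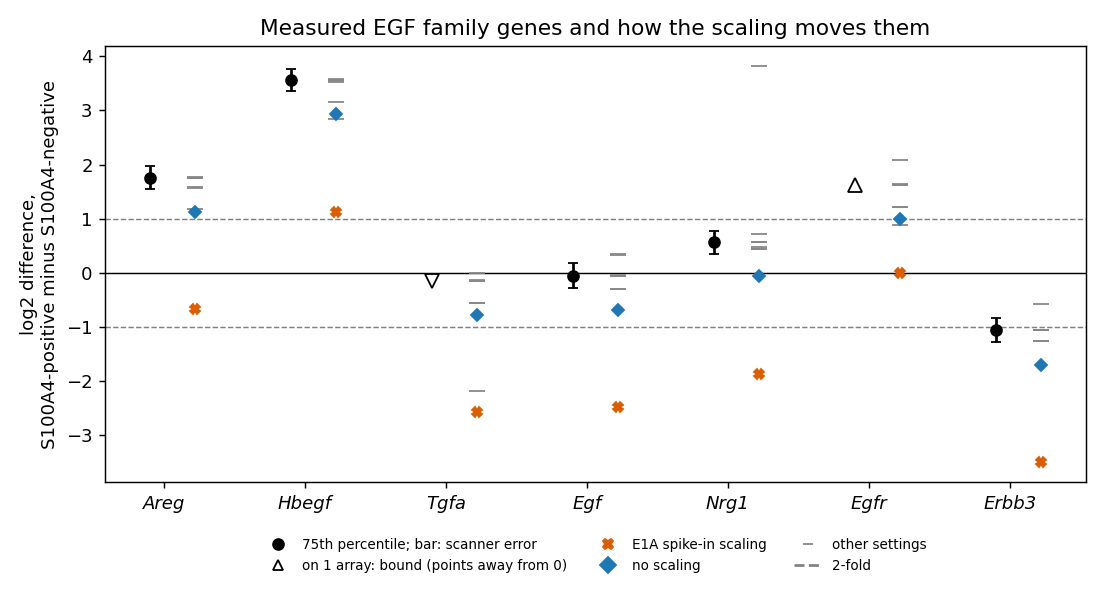
Log2 difference (S100A4-positive minus S100A4-negative) of the 7 measured genes. Black symbols give the 75th percentile scaling with the scanner error, open triangles a bound, and the symbols to their right the other settings; Hbegf stays above the upper dashed 2-fold line at every setting, and Areg falls to -0.68 with spike-in scaling.

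The partner receptors and other neuregulins were described from a list of 5 genes. Erbb2, the receptor without a ligand, was at 0.72 ± 0.23, with 66.2 in the positive and 62.2 in the negative fraction. Erbb4, the other neuregulin receptor, was at 0.37 ± 0.20, with 778 in the positive and 933 in the negative fraction at 1 detected probe of 2. Neither receptor gene passed 2-fold. Nrg2 and Nrg4 were seen in the positive fraction alone and were at least 4.31-fold and 2.89-fold higher there, each at 1 detected probe, of 3 for Nrg2 and of 4 for Nrg4. Nrg3 was not well above background on either array.

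Genes for the release of the ligands were mostly alike in both fractions, apart from 3 that passed 2-fold on the higher side. Of 10 measured genes of shedding and trafficking none passed it on the lower side. Adam17, the main sheddase of Hbegf and Areg, was at 0.21 ± 0.20 (1.17 at another probe) and Adam10, which cuts Egf and Btc, at -0.44 ± 0.20. Rhbdf1 and Rhbdf2, the iRhom partners of ADAM17, were at -0.78 and 0.40, and Frmd8, which stabilises the iRhoms, at -0.77. The higher ones were Cd9, a tetraspanin that binds the Hbegf precursor, at 1.99 ± 0.20, with 1461 in the positive and 572 in the negative fraction, the integrin chain gene Itgb1 at 2.32, and Timp3, an inhibitor of ADAM17. Timp3 read 213 in the positive fraction and 11.1, not well above background, in the negative fraction, and was at least 20.5-fold higher.

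Receptor adaptors and feedback genes went both ways. Of 11 measured adaptor and proximal signalling genes 3 were at least 2-fold higher, 2 lower and 6 within 2-fold, with a median of 0.08. Gab2, a docking adaptor, was at least 19.4-fold higher in the positive fraction, the kinase gene Src was at 2.57 and Eps8, a substrate of the EGF receptor, at 1.83. Sos1, the exchange factor for RAS, had 2 detected probes of 3. It was at -1.79 at the brighter of the 2 and at -0.07 at the other. The phospholipase gene Plcg1 was at -1.71. The core adaptor genes Grb2 (-0.17) and Shc1 (0.02) did not pass 2-fold. Of 15 feedback and turnover genes 3 were higher, 3 lower and 9 within 2-fold, with a median of 0.03. The RAS pathway inhibitor genes Spry2 and Spred1 were at 2.65 and 2.45, although the second Spry2 probe gave 0.68, and Errfi1, an inhibitor that binds the EGF receptor kinase, was at 1.33. On the lower side stood Lrig1, a negative regulator of ERBB receptors, at -2.37, and the ubiquitin ligase genes Cblb (-1.20, but -0.68 at another probe) and Rnf41 (-1.14), of which Rnf41 acts on ERBB3.

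Genes known to respond to ERK, the kinase downstream of these receptors and of many others, had 6 of 17 at least 2-fold higher, 3 lower and a median of -0.04. Atf3 was at 4.53, Ier3 at 4.43, Dusp5 at 2.40 and Fosb at 2.24, and Fosl1 was at least 9.63-fold higher in the positive fraction. Myc was at -3.20, Egr3 at -3.12 and Dusp4 at -2.21. Among the early response genes Egr1 (0.06) and Fos (-0.04) lay within 2-fold, whereas others, such as Fosb and Egr3, did not. Dusp6 (-0.43), an ERK phosphatase, also lay within 2-fold. Over the 57 pathway genes other than the family members, 17 (29.8%) passed 2-fold on the higher side and 8 (14.0%) on the lower side, beside 21.4% and 17.0% of all genes. Their median of 0.08 was near that of all genes. Of these 57 genes 5 were seen on the positive array alone and none on the negative array alone. These 5 (Nrg2, Nrg4, Timp3, Gab2 and Fosl1) all counted as higher. With genes well above background on both arrays only, 12 of 52 pathway genes were higher and 8 lower, beside 17.7% and 16.4% of all such genes.

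**Figure D4:**
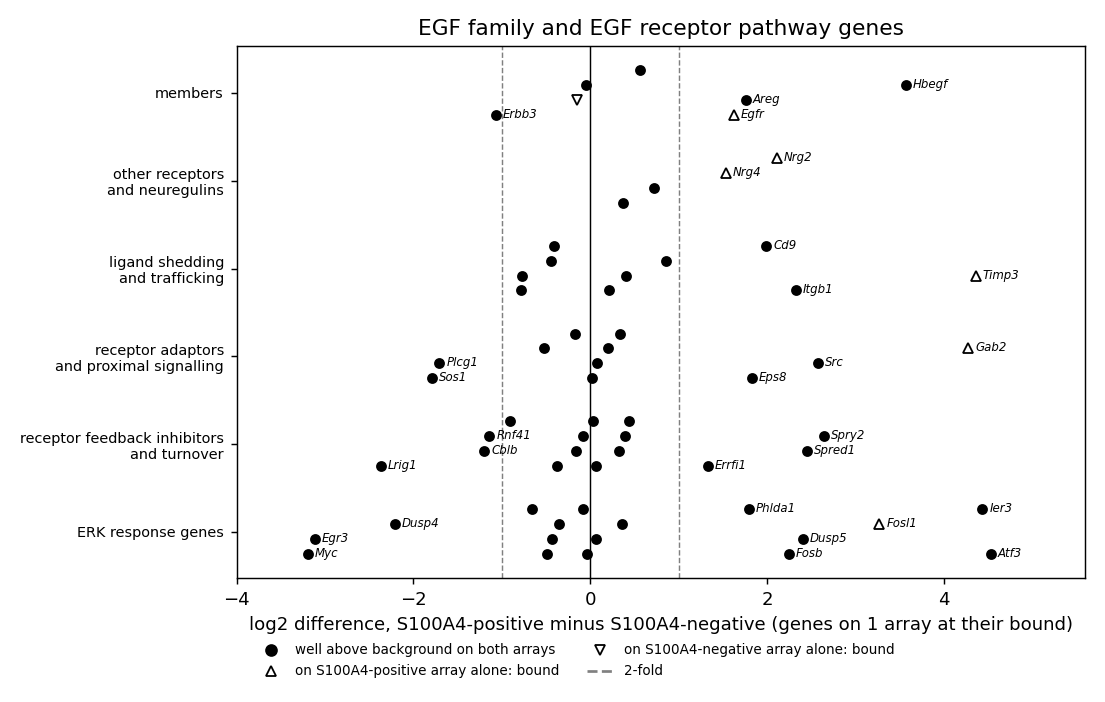
Log2 difference (S100A4-positive minus S100A4-negative) of the family members and of each pathway list; filled circles were well above background on both arrays and open triangles are bounds. Genes past the dashed 2-fold lines are named, and each of the lists on adaptors, feedback and ERK response has genes on both sides.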

How the data were processed

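Per the labels' protocols, RNA was amplified and labelled with a kit for low input from Agilent. The authors' arrays were of Agilent design 74809, per the file headers, and were read with Feature Extraction 10.7.1.1 (9.5.1.1 per the submitters' processing notes). The deposited scanner tables give background-subtracted spot intensity, not normalized between arrays, with flags for spots well above background or outlying. The deposited value table gives 1 intensity per probe, made in a way not given in the sources used here, and was used as an alternative. 

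Control and outlier spots were left out, log2 signals were centred on each array's 75th percentile, and spots of a probe were averaged. Probes were named through RefSeq accessions or symbols of a GRCm38 gene table, which changed no member's name. A gene took its probe with the highest mean signal among those well above background on at least 1 array. For a bound, the bright array's value was set against the dim array's lowest detected signal, or against the dim probe itself where that was higher. No test was possible with 1 array per fraction, and the number of arrays limits the precision. The median scanner error of a difference was 0.20, and probes spotted repeatedly (269 of them) varied by 0.11 (log2). Named are S100a4, all members at all probes, and from each list up to 4 genes each way past 2-fold and up to 3 seen on 1 array; named genes within 2-fold were chosen after their values were seen. Some listed genes are not reported here. Members, lists and the rule were chosen with earlier results of these data known. Alternatives were quantile normalization and normexp (limma 3.58.1, R 4.3.3), other scalings, filters and probe choices, and the deposited table. Other steps used Python 3.11.15, numpy 2.4.6 and pandas 2.3.3, and were tested on simulated data.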

Additional observations from a re-analysis of the deposited data

How the results depend on the processing

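No paired analysis was possible because each fraction has 1 array. Quantile normalization, a 75th percentile taken from doubly detected probes, the deposited value table and the inclusion of outlier spots left the 4 counts (members and pathway genes at least 2-fold higher or lower) at 3, 1, 17 and 8, and the members' median between 0.43 and 0.58. With probes detected on both arrays only, 2 of 5 members and 12 of 52 pathway genes were higher, beside 17.7% of all such genes. With the median over a gene's probes 6 pathway genes were lower. On the scale of the spike-in controls, which were 3.50-fold brighter on the positive array, all differences shifted by -2.44: 1 member was higher and 4 lower, the members' median was -1.88, 4 pathway genes were higher and 41 lower, and Areg turned to -0.68. Of all genes called, 4.68% were then higher, against 55.6% with the 75th percentile, 26.9% with no scaling and 48.6% with quantile normalization. With no scaling the members' median was -0.070 and 18 pathway genes were lower. The number of members at least 2-fold lower was 0 with normexp, 2 with no filter on dim probes and 0 with probes to curated mRNAs alone, where the members' median was 1.76; the last setting, chosen after seeing the data, leaves Erbb3 out. Signals near the background are a limit for the members, since 10 of 23 probes were well above background on neither array.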

Other observations

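Several pathway genes gave different differences at different probes. Of 30 pathway genes with 2 or more probes well above background on both arrays, 9 had probes more than 2-fold apart, close to the 30.3% of all such genes, and for 7 the 2-fold call depended on the probe. The widest span was that of Lrig2, a relative of the ERBB regulator Lrig1, with probes from -1.89 to 0.61. The RAS pathway inhibitor gene Spred2 ranged from -0.37 to 1.61, Socs4, which can target the EGF receptor, from -1.57 to 0.03, and Eps15, a gene of receptor endocytosis, from -0.84 to 0.71 over 5 probes. For Fosb (2.24 and 4.11) and Errfi1 (1.33 and 2.80) both probes were at least 2-fold higher in the positive fraction.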
